A study of Danio rerio with 6 samples.

Results

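The 36 genes described here encode the paralogous enzymes and carriers of the glycolytic pathway of the zebrafish, from glucose entry through SLC2A1 carriers to lactate exit through SLC16A3. They were chosen by symbol, at a time when earlier results of these data were known, so the comparison with the background below is a description. Of the 36, 35 were found by exact symbol among 31387 gene rows, and the remaining symbol, pklr, stood in the table only in capitals and was kept apart. All 35 were above 0 in at least 1 library, and 28 reached 1 RPKM (reads scaled by gene length and by the mapped reads of the library) in at least 1 biological sample, which was the condition for a test, as did 15803 genes in all. The 7 members that were not tested are slc2a1a, gck, gpib, pfkma, pfkmb, aldoca and eno2, and none of them exceeded 0.675 RPKM in any sample.

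The samples came from adult female zebrafish of 11 to 13 months of the line Tg(pou4f3:GAP-GFP)s273t, in which the pou4f3 promoter, active in hair cells, drives a membrane-bound green fluorescent protein. Hair cells were GFP-positive cells of the lagena, utricle and saccule, pooled over the 3 organs, in 2 biological samples of 2000 cells. Surrounding cells were GFP-negative cells in 1 biological sample, also of 2000 cells, so this group is whatever the ear tissue held beside the GFP-positive cells and has no replicate. Each biological sample had 2 technical columns, called libraries here, which were averaged. The names of the 2 columns share an index sequence and differ in the lane mark, and separate preparations are not stated. The strain label is the same for all samples, but the column name of the surrounding cells holds the letters WT, whose meaning is not stated. Had these cells come from wild-type fish, genotype and cell group could not be told apart, and the absence of GFP would not set hair cells aside. No treatment was compared.

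Mapped reads per library were between 15843692 and 51566819, and hair cells replicate 2 was sequenced 3.21-fold deeper than replicate 1. All 13 tested hair cell markers were higher in hair cells, with summed levels of 15554 and 14652 RPKM in hair cells, against 14.4 RPKM in surrounding cells, so hair cell RNA was scarce in the surrounding cells whatever their genotype. All 11 tested epithelial markers were lower in hair cells, with summed levels of 630 and 712 RPKM in hair cells, against 18764 RPKM in surrounding cells. Fibroblast and matrix markers (11 of 12 tested lower), endothelial markers (6 of 8 lower) and leukocyte markers (7 of 10 lower, 1 higher) had their higher sums in surrounding cells, and none of 5 tested red blood cell markers was called by limma (0 at an unadjusted p under 0.05, and 3 lower by limma-voom on recovered reads). The surrounding cells are thus a mixture by their markers. Red blood cell markers summed to 290 and 105 RPKM in hair cells, against 387 RPKM in surrounding cells. Such transcripts were therefore present in the hair cell samples too, at unequal levels. The leukocyte marker called higher was lyz, with 31.4 and 22.2 RPKM in hair cells, against 0.722 RPKM in surrounding cells. In such bulk samples, fewer cells of a type and less RNA per cell cannot be told apart.

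Glycolysis splits 1 glucose into pyruvate through a fixed order of enzymes and yields ATP without oxygen. Hexokinase traps glucose in the cell, phosphofructokinase commits it to the pathway, and pyruvate kinase makes the last ATP, after which lactate dehydrogenase regenerates the NAD that the glyceraldehyde phosphate dehydrogenase step needs. Vertebrates keep several genes for most steps, with muscle, liver and brain types, and the teleost genome duplication left many of them in a and b copies. Hair cells use ATP to pump out the ions that enter through their mechanotransduction and synaptic channels.

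Of the pathway's tested genes 14, or 50%, were called higher in hair cells, against a background of 17.7% of all tested genes. A call needed both a limma adjusted p below 0.05 and a difference of 1 or more on the log2(RPKM + 1) scale. The 3 members called lower were 10.7% of those tested, against a background of 18.0%, and 11 were not called. Among the 3, pgam2 had no read in either hair cell sample, so its call rests on the surrounding cell sample. The median log2 difference over the 28 tested members was 1.41, beside 0.15 over all tested genes. Hair cell samples both lay above the surrounding cell sample for 20 of the 28 members, against 49.6% of all tested genes, and both lay below it for 7, against 39.1%. With 2 samples against 1, a gene's own spread comes from the pair of hair cell samples alone, and limma moderates it by the spread of other genes. Of the 3.42 degrees of freedom of each test, 1 is the gene's own. The surrounding cell sample is assumed to vary as the hair cell samples do.

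**Figure D1:**
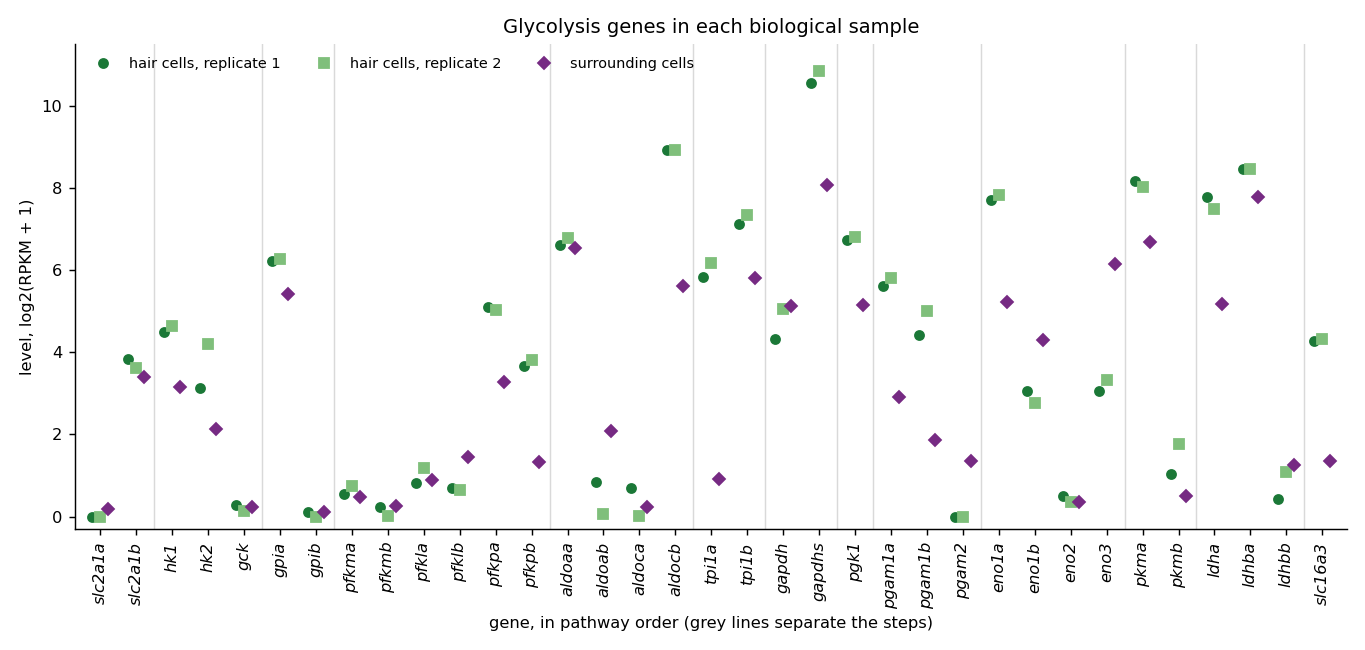
Level of each of the 35 genes as log2(RPKM + 1), 1 point per biological sample, in pathway order with grey lines between steps. Circles and squares are hair cells replicates 1 and 2 and diamonds are surrounding cells; gapdhs is the highest member in all 3 samples, and the diamond lies above both hair cell points for 7 tested genes, eno3, eno1b, pgam2, aldoab, pfklb, gapdh and ldhbb.

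The pathway took a larger part of the transcript pool in hair cells. The 35 genes summed to 3727 and 4120 RPKM in hair cells, against 1104 RPKM in surrounding cells, a ratio of 3.55. As a share of all summed RPKM this was 1.04% and 1.097% in hair cells, against 0.372% in surrounding cells. The hair cell samples were close to each other and both above the surrounding cells, though with 2 samples against 1 the smallest p of the exact permutation test is 0.333, the value it gave. One gene, gapdhs, carried 40.3% and 44.7% of the member sum in hair cells, against 24.1% in surrounding cells. Without it the ratio of sums was 2.69.

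The summed level of each step was higher in both hair cell samples at all 13 steps, by ratios of the hair cell mean to the surrounding cells from 1.27 for glucose transport to 11.9 for lactate export, with a median of 3.15. Phosphoglycerate mutase (7.17), glyceraldehyde phosphate dehydrogenase (5.66) and aldolase (4.09) followed lactate export in this order. These sums cover the 35 members only and no other isoenzyme or carrier of a step, and lactate export is slc16a3 alone. Enolase (1.84), glucose phosphate isomerase (1.81) and glucose transport had the smallest ratios. RPKM is scaled to all mapped reads, of which genes took 58.6% to 61.1% in hair cell libraries, against 50.9% to 51.0% in surrounding cells. This difference is part of the ratios of RPKM sums given here. When levels were rescaled without mitochondrial genes and the 20 most abundant genes of each sample, 12 of the 13 steps were higher in both hair cell samples. The exception was glucose transport.

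**Figure D2:**
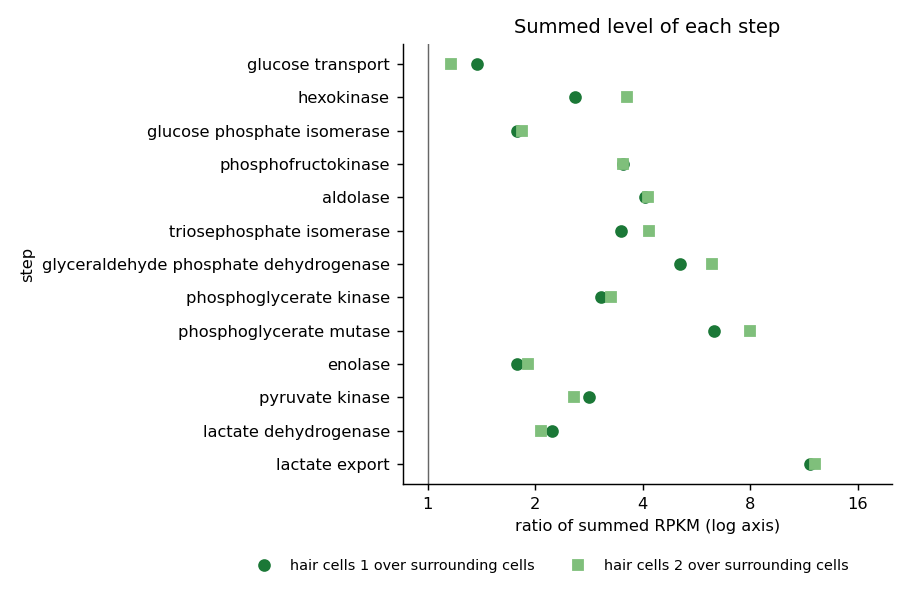
Ratio of each step's summed RPKM in hair cells to that in surrounding cells, on a log axis, with 1 point for each hair cell sample. All points lie right of the line at 1. Lactate export, which is slc16a3 alone, lies farthest right (mean ratio 11.9), and glucose transport lies nearest to the line (1.27).

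Glucose enters through SLC2A1 (GLUT1) carriers and is phosphorylated by hexokinase. The carrier slc2a1b (chromosome 6) had 13.4 and 11.3 RPKM in hair cells, against 9.58 RPKM in surrounding cells, and its difference of 0.33 (log2, SE 0.24) was not called. Its paralog slc2a1a had no read in either hair cell sample and 8 reads in surrounding cells. Hexokinase 1, hk1 (chromosome 13), the form that most tissues express, had 21.6 and 23.8 RPKM in hair cells, against 7.93 RPKM in surrounding cells. It was called higher, by 1.41 on the log2 scale (SE 0.22, limma adjusted p = 0.0208).

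Hexokinase 2, hk2, typical of muscle and fat in mammals, had 7.82 and 17.4 RPKM in hair cells, against 3.35 RPKM in surrounding cells. Both hair cell samples lay above the surrounding cells, but they differed from each other 2.23-fold, the widest gap among the 22 members that reached 5 RPKM. Its log2 difference of 1.55 (SE 0.55) did not pass the test (limma adjusted p = 0.109). The hk2 part of the hexokinase sum was 26.4% and 42.1% in hair cells, against 29.3% in surrounding cells, so the hair cell samples lay on either side of the surrounding cells. Glucokinase, gck, the liver and islet form, stayed at or under 0.216 RPKM.

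Glucose phosphate isomerase turns glucose 6-phosphate into fructose 6-phosphate. Nearly all of this step was gpia (chromosome 25), with 74.0 and 76.7 RPKM in hair cells, against 41.6 RPKM in surrounding cells. Its log2 difference of 0.84 had an adjusted p of 0.0468 by limma but was under the required size of 1, so it was not called. The copy gpib had 5 reads, no read and 6 reads in hair cells replicates 1 and 2 and surrounding cells.

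Phosphofructokinase, the committed and most regulated step, has platelet (P), liver (L) and muscle (M) types, each in a and b copies. The P type led in every sample. The gene pfkpa (chromosome 24) had 33.2 and 31.4 RPKM in hair cells, against 8.64 RPKM in surrounding cells, and pfkpb (chromosome 2) had 11.6 and 12.9 RPKM in hair cells, against 1.52 RPKM in surrounding cells. Both were called higher, by log2 differences of 1.79 (SE 0.21, limma adjusted p = 0.0120) and 2.40 (SE 0.25, limma adjusted p = 0.0101).

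The other types were low. Liver-type pfkla had 0.773 and 1.29 RPKM in hair cells, against 0.860 RPKM in surrounding cells, which lay between them. Liver-type pfklb had 0.626 and 0.561 RPKM in hair cells, against 1.74 RPKM in surrounding cells, a log2 difference of -0.78 that was under the required size (limma adjusted p = 0.0410). On this scale a pseudocount of 1 RPKM compresses such low values. Muscle-type pfkma and pfkmb stayed at or under 0.675 RPKM. Still, pfklb made 1.34% and 1.196% of the phosphofructokinase sum in hair cells, against 13.0% in surrounding cells.

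**Figure D3:**
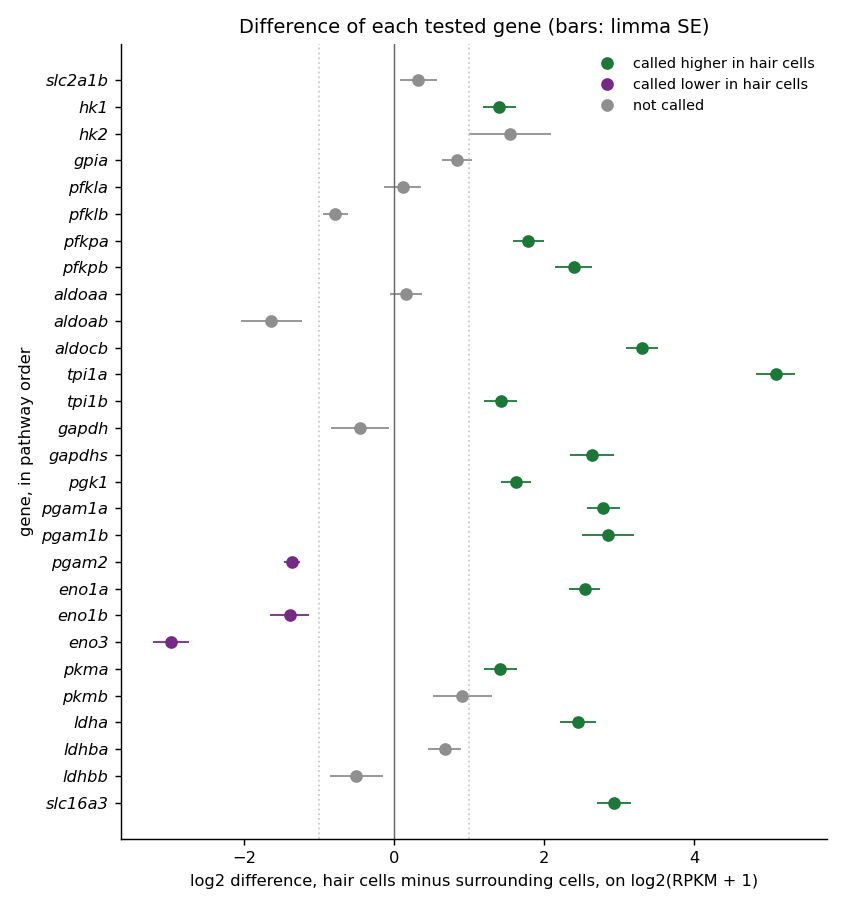
Log2 difference, hair cells minus surrounding cells, on log2(RPKM + 1) for the 28 tested genes in pathway order, with bars of 1 limma standard error. Green points were called higher (14), purple lower (3) and grey not called (11), and the dotted lines mark the size of 1 that a call requires; tpi1a lies farthest right at 5.09 and eno3 farthest left at -2.97.

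Aldolase, which splits fructose 1,6-bisphosphate, was led by different members in the 2 cell groups. The brain-type gene aldocb (chromosome 21) had 481 and 483 RPKM in hair cells, against 47.9 RPKM in surrounding cells, and was called higher by 3.30 on the log2 scale (SE 0.21, limma adjusted p = 0.00719). The hair cell samples were almost equal and far above the surrounding cells. The muscle and general form aldoaa (chromosome 3) had 97.3 and 109 RPKM in hair cells, against 91.9 RPKM in surrounding cells, and its difference of 0.16 (SE 0.21) was not called. So aldocb made 82.97% and 81.5% of the aldolase sum in hair cells, against 33.4% in surrounding cells, where aldoaa made 64.2%.

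The change of the aldocb to aldoaa balance, hair cells minus surrounding cells, was 3.14 on the log2 scale. The other copies were low. The gene aldoab had 0.805 and 0.0490 RPKM in hair cells (41 and 8 reads), against 3.27 RPKM in surrounding cells (179 reads), and its log2 difference of -1.63 had an adjusted p of 0.0540 by limma. The gene aldoca had 44 reads in hair cells replicate 1 and 1 read in the deeper replicate 2, against 13 reads in surrounding cells, so the hair cell samples did not share a level.

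Triosephosphate isomerase interconverts the trioses that aldolase releases. The gene tpi1b (chromosome 16) led in all samples, with 137 and 160 RPKM in hair cells, against 54.7 RPKM in surrounding cells, and was called higher by 1.42 on the log2 scale (SE 0.22, limma adjusted p = 0.0210). The copy tpi1a (chromosome 19) had 55.6 and 71.1 RPKM in hair cells (2285 and 9372 reads), against 0.882 RPKM in surrounding cells (39 reads). This ratio of 71.8 was the widest of the pathway among genes with reads in both groups (log2 difference 5.09, SE 0.26, limma adjusted p = 0.00719). The tpi1a part of the step was 28.8% and 30.8% in hair cells, against 1.59% in surrounding cells.

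In the RefSeq annotation of assembly GRCz12tu, eno2, the neuronal enolase, is the neighbour of tpi1a with no protein-coding gene between them. The neighbour had 0.421 and 0.280 RPKM in hair cells, against 0.274 RPKM in surrounding cells, and so was low in all samples.

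Glyceraldehyde phosphate dehydrogenase makes the NADH that lactate dehydrogenase uses up again. Its gene gapdhs (chromosome 16), named after the sperm isoenzyme of mammals, had 1503 and 1843 RPKM in hair cells, against 266 RPKM in surrounding cells. It ranked 22 and 20 among all genes by RPKM in hair cells, against 149 in surrounding cells, and was called higher by 2.64 (log2, SE 0.29, limma adjusted p = 0.0111). The paralog gapdh, also on chromosome 16, had 19.2 and 31.9 RPKM in hair cells, against 34.1 RPKM in surrounding cells. Its log2 difference of -0.45 (SE 0.39, limma adjusted p = 0.412) was not called, and gapdh, a common reference gene, made only 1.26% and 1.70% of the step in hair cells, against 11.4% in surrounding cells.

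Phosphoglycerate kinase makes the first ATP of the pathway and has a single member here. Its gene pgk1 (chromosome 21) had 104 and 112 RPKM in hair cells, against 34.3 RPKM in surrounding cells. It was called higher by 1.63 (log2, SE 0.20, limma adjusted p = 0.0133).

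Phosphoglycerate mutase has a brain type, PGAM1, in 2 copies and a muscle type, PGAM2. The gene pgam1a (chromosome 13) had 47.8 and 55.2 RPKM in hair cells, against 6.57 RPKM in surrounding cells, and pgam1b (chromosome 1) had 20.3 and 30.9 RPKM in hair cells, against 2.62 RPKM in surrounding cells. Both copies were called higher, by log2 differences of 2.79 (SE 0.22, limma adjusted p = 0.00773) and 2.85 (SE 0.35, limma adjusted p = 0.0133). Their balance barely differed between the groups, as the log2 ratio of pgam1b to pgam1a changed by 0.06 with the surrounding cells between the hair cell samples.

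Muscle-type pgam2 (chromosome 21) had no read in either hair cell sample and 55 reads in surrounding cells (1.57 RPKM). Taking the limit of 3 reads that a count of 0 allows in hair cells replicate 1, it was at least 17.0-fold lower in hair cells. It was called lower (limma adjusted p = 0.00774), but it reached the filter of 1 RPKM only in surrounding cells. Both hair cell values are 0, so the spread in its test is wholly borrowed from other genes and the p is no measure of its own. In surrounding cells pgam2 made 14.6% of the mutase sum.

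Enolase was the other step with a different leading paralog in the 2 groups. The general form eno1a (chromosome 23) had 208 and 225 RPKM in hair cells, against 36.4 RPKM in surrounding cells, and was called higher by 2.54 (log2, SE 0.20, limma adjusted p = 0.00779). Muscle-type eno3, also on chromosome 23, had 7.35 and 8.94 RPKM in hair cells, against 70.4 RPKM in surrounding cells, and was called lower (log2 difference -2.97, SE 0.24, limma adjusted p = 0.00776). These 2 genes moved in opposite directions in both hair cell samples.

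The copy eno1b (chromosome 6) had 7.34 and 5.79 RPKM in hair cells, against 18.7 RPKM in surrounding cells, and was called lower (log2 difference -1.39, SE 0.26, limma adjusted p = 0.0312). Of the enolase sum, eno1a made 93.2% and 93.7% in hair cells, against 28.9% in surrounding cells, where eno3 made 56.0%. The log2 ratio of eno1a to eno3 changed by 5.51 and that of eno1a to eno1b by 3.93. The balance of eno1a to eno3 changed most among the 16 paralog pairs with this pseudocount, followed in size by pgam2 to pgam1a (-4.15). The order depended on the pseudocount. With 0.1 RPKM the log2 differences were -4.06 for pgam2 and 2.95 for pgam1a, against 2.57 for eno1a and -3.10 for eno3. The balance of pgam2 to pgam1a, with no pgam2 read in hair cells, then changed more than that of eno1a to eno3. Likewise tpi1a to tpi1b changed by 4.57 with 0.1 RPKM, against 4.08 for eno1a to eno1b. As for all 16 pairs, the exact permutation test over 2 samples against 1 could not go below p = 0.333.

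**Figure D4:**
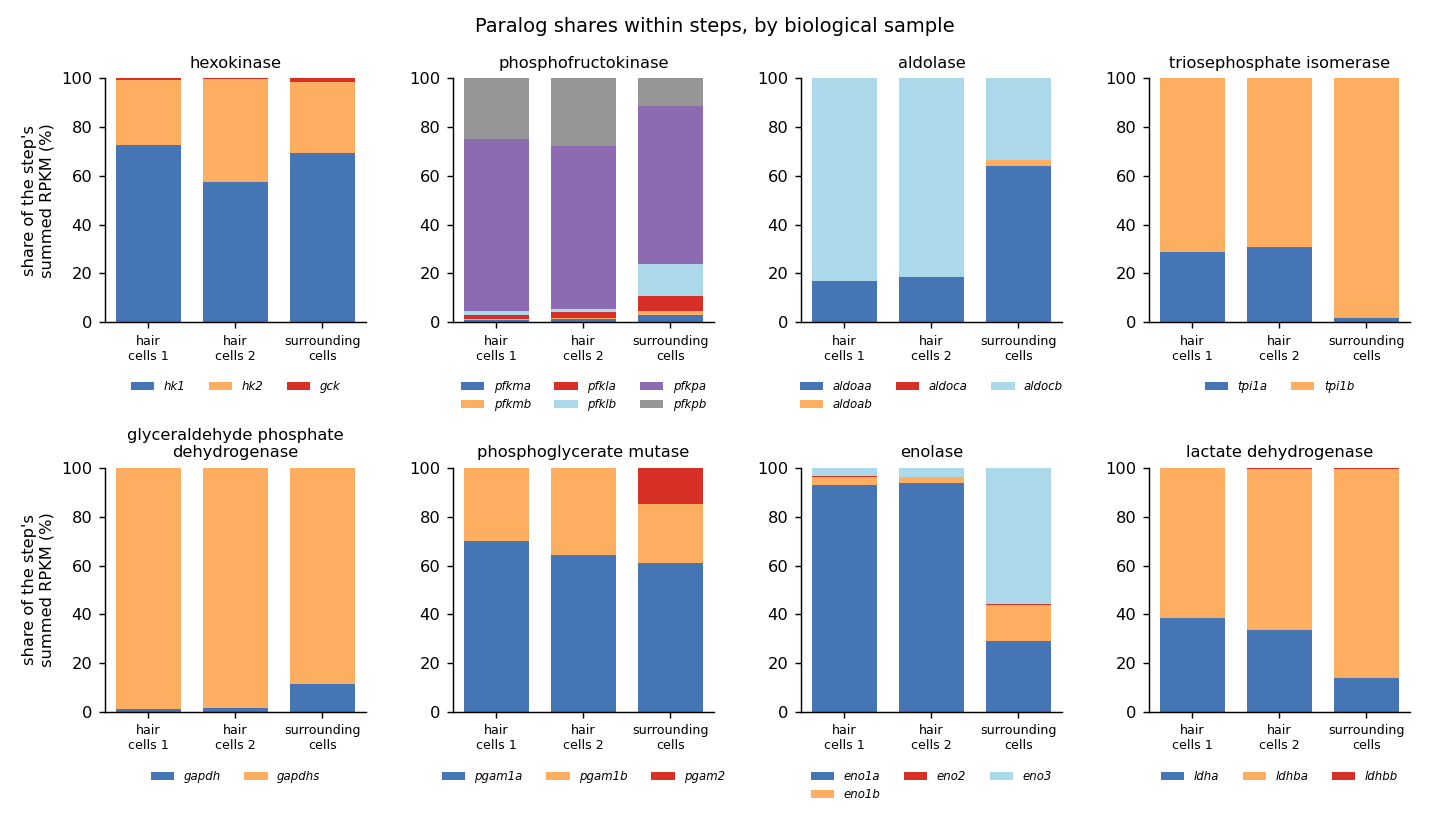
Share of each paralog in the summed RPKM of its step, in percent, for 8 steps, with 1 bar per biological sample (hair cells 1 and 2, surrounding cells). In aldolase and enolase the leading paralog differs between the groups, and tpi1a, at 28.8% and 30.8% of its step in hair cells, is 1.59% in surrounding cells.

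Pyruvate kinase was almost wholly pkma (chromosome 18), which had 288 and 259 RPKM in hair cells, against 102 RPKM in surrounding cells. It was called higher by 1.42 (log2, SE 0.22, limma adjusted p = 0.0204). The copy pkmb had 1.05 and 2.41 RPKM in hair cells, against 0.404 RPKM in surrounding cells, and its difference of 0.91 (SE 0.39) was not called. The liver and red blood cell gene, listed as PKLR, had 11, 5 and 4 reads in hair cells replicates 1 and 2 and surrounding cells.

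Lactate dehydrogenase converts pyruvate to lactate and back, and its A subunit is the one known from muscle and low-oxygen tissue, its B subunit from heart. The gene ldhba (chromosome 4) led in all samples, with 349 and 350 RPKM in hair cells, against 218 RPKM in surrounding cells, and its log2 difference of 0.67 (SE 0.22, limma adjusted p = 0.0893) was not called. The gene ldha (chromosome 25) had 217 and 178 RPKM in hair cells, against 34.9 RPKM in surrounding cells, and was called higher by 2.46 (log2, SE 0.24, limma adjusted p = 0.00919). The ldha part of the step was 38.3% and 33.6% in hair cells, against 13.7% in surrounding cells, and ldhbb had at most 1.40 RPKM.

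Lactate leaves with a proton through SLC16A3 (MCT4), the carrier known from strongly glycolytic cells. Its gene slc16a3 (chromosome 12) had 18.3 and 18.9 RPKM in hair cells, against 1.56 RPKM in surrounding cells. This 11.9-fold difference was called (log2 2.94, SE 0.23, limma adjusted p = 0.00769).

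Of the 11 steps with at least 2 members found, 9 had the same leading paralog in all 3 samples, and only aldolase and enolase did not. How reads shared by near-identical copies were assigned is not stated, so the split between a and b copies is less certain than the sum of a step. Of the 13 steps, 11 held at least 1 gene called higher, the exceptions being glucose transport and glucose phosphate isomerase. Among the 22 members that reached 5 RPKM, 19 agreed within 1.3-fold between the hair cell samples, and hk2, gapdh (1.66-fold) and pgam1b (1.52-fold) did not. The 13 members under 5 RPKM had their highest values between 0.0847 RPKM (gpib) and 3.27 RPKM (aldoab).

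The paralogs that were higher in surrounding cells include muscle-type eno3 and pgam2, and muscle markers moved with them. Other genes known from muscle did not share a direction. Both ldha and the glycogen gene pygmb were called higher in hair cells (log2 difference 2.46 for each), and hk2 (1.55) and aldoaa (0.16) were not called. The copies pygma (-0.71) and aldoab (-1.63) lay lower in hair cells and were not called either. Of 14 tested muscle markers, 11 were lower in hair cells, and desma alone was higher. Without desma the marker sum was 8.37 and 9.20 RPKM in hair cells, against 91.9 RPKM in surrounding cells, where the highest marker, pvalb1, had 19.1 RPKM. Muscle-type eno3, with 70.4 RPKM there, lay above every one of these markers. The part of muscle cells or of the other cells of the mixture in the levels of eno3, pgam2 and aldoab was not tested. Of 6 tested neuron markers, 3 were higher in hair cells and 1 lower, led by sncb with 129 and 110 RPKM in hair cells, against 1.19 RPKM in surrounding cells. The other neuron markers found, elavl3, elavl4, stmn2a, stmn2b, nefma and nefmb, were not tested. They were low in every sample, with at most 0.770 RPKM (elavl4 in surrounding cells), so the list as a whole did not share a direction. The part of neuronal RNA in the levels of aldocb and pgam1a was not tested either.

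In 10 lists of genes around the pathway, the median log2 differences were between -0.55 (gluconeogenesis) and 0.95 (glycogen), beside 0.15 over all tested genes, and calls are read against the same backgrounds of 17.7% higher and 18.0% lower. Of 6 tested further glucose carriers, limma called 1 higher and 0 lower (1 lower at an unadjusted p under 0.05, and 2 lower by limma-voom). This was slc2a3a, which encodes a GLUT3 carrier of the type known from neurons, with 8.41 and 16.8 RPKM in hair cells, against 0.307 RPKM in surrounding cells (log2 difference 3.31, SE 0.50, limma adjusted p = 0.0198). With the SLC2 family counted together, slc2a3a made 30.0% and 47.7% of glucose transport in hair cells, against 1.54% in surrounding cells, and it led this step in hair cells replicate 2 only. The 3 tested genes of lactate and pyruvate transport other than slc16a3 gave no call (0 at an unadjusted p under 0.05 by limma, and 0 by limma-voom).

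Of 9 tested further genes listed beside the steps, not all of them isoenzymes of a step, 2 were higher and 2 lower (1 and 2 by limma-voom). Those higher were eno4, with 5.42 and 5.20 RPKM in hair cells, against 0.423 RPKM in surrounding cells, and ldhd, with 4.78 and 5.05 RPKM in hair cells, against 1.18 RPKM in surrounding cells. Despite its name, ldhd is not an isoenzyme of the lactate dehydrogenase step described above. Among 16 tested regulators of phosphofructokinase and hypoxia factors, 4 were higher and 1 lower. The genes pfkfb2b and pfkfb4b make enzymes that set the level of fructose 2,6-bisphosphate, the activator of phosphofructokinase. They had 6.19 and 11.3 RPKM (pfkfb2b) and 26.98 and 33.2 RPKM (pfkfb4b) in hair cells, against 0.773 and 9.49 RPKM in surrounding cells. The hypoxia factor gene epas1a had 3.58 and 3.996 RPKM in hair cells, against 0.780 RPKM in surrounding cells, and was the next by size.

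Gluconeogenesis runs the pathway backwards. Of its 4 tested genes 1 was higher and 2 were lower. The fructose bisphosphatase gene fbp1a had 5.64 and 10.1 RPKM in hair cells, against 45.0 RPKM in surrounding cells (log2 difference -2.42). The other gene called lower, pck2 (-1.06), had 0.0277 and 0.0345 RPKM in hair cells, against 1.14 RPKM in surrounding cells. As pck2 reached the filter of 1 RPKM only in surrounding cells, its call rests on that sample. The pyruvate carboxylase gene pcxa, whose enzyme also refills the citrate cycle, had 40.6 and 44.2 RPKM in hair cells, against 10.2 RPKM in surrounding cells (1.95).

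Among 15 tested genes for the entry of pyruvate into mitochondria, limma called 4 higher and 2 lower, whereas limma-voom called 1 higher and 4 lower, so the balance of calls in this list turned with the method. The mitochondrial pyruvate carrier gene mpc1 had 302 and 286 RPKM in hair cells, against 42.2 RPKM in surrounding cells (log2 difference 2.77, SE 0.21, limma adjusted p = 0.00741). The pyruvate dehydrogenase kinase genes, whose products switch pyruvate dehydrogenase off, did not share a call. Lower were pdk2a (-1.80) and pdk3b (-1.27), whereas pdk3a was called higher (log2 difference 1.08, SE 0.25, limma adjusted p = 0.0455). Not called were pdk1 (-0.10), pdk2b (-1.27) and pdk4 (-0.24).

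Of 20 tested citrate cycle genes, limma called 8 higher and 0 lower, with a median log2 difference of 0.91. At an unadjusted p under 0.05 these counts were 12 and 0, and limma-voom called 6 and 0. Among the called genes the largest differences were those of sucla2 (1.81), sdhb (1.505) and sdhc (1.29), which encode subunits of succinate-CoA ligase and succinate dehydrogenase. Of 14 tested genes of the glycerol phosphate and malate shuttles, which carry the reducing power of glycolytic NADH into mitochondria, 5 were higher and 3 lower, with mdh2 counted here and in the citrate cycle. The cytosolic malate dehydrogenase gene mdh1aa had 235 RPKM in both hair cell samples, against 47.3 RPKM in surrounding cells, and mdh1b was higher by 2.15 (log2). The glycerol phosphate dehydrogenase gene gpd1c had 1.68 and 1.01 RPKM in hair cells, against 25.7 RPKM in surrounding cells, a log2 difference of -3.53.

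Glycogen genes gave 5 higher and 2 lower calls among 19 tested. The muscle-type glycogen phosphorylase gene pygmb had 29.2 and 28.0 RPKM in hair cells, against 4.39 RPKM in surrounding cells (log2 difference 2.46). The phosphorylase kinase gene phkg1a was higher by 2.11, and the branching enzyme gene gbe1a was called lower (-1.87). With 0.0593 and 0.00458 RPKM in hair cells, against 2.78 RPKM in surrounding cells, gbe1a reached the filter only in surrounding cells. Its call thus rests on that sample. Of 9 tested pentose phosphate pathway genes, 2 were higher and 1 lower. The endoplasmic reticulum enzyme gene h6pd had 7.70 and 9.09 RPKM in hair cells, against 0.375 RPKM in surrounding cells, and pgd was higher by 1.22 (log2).

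**Figure D5:**
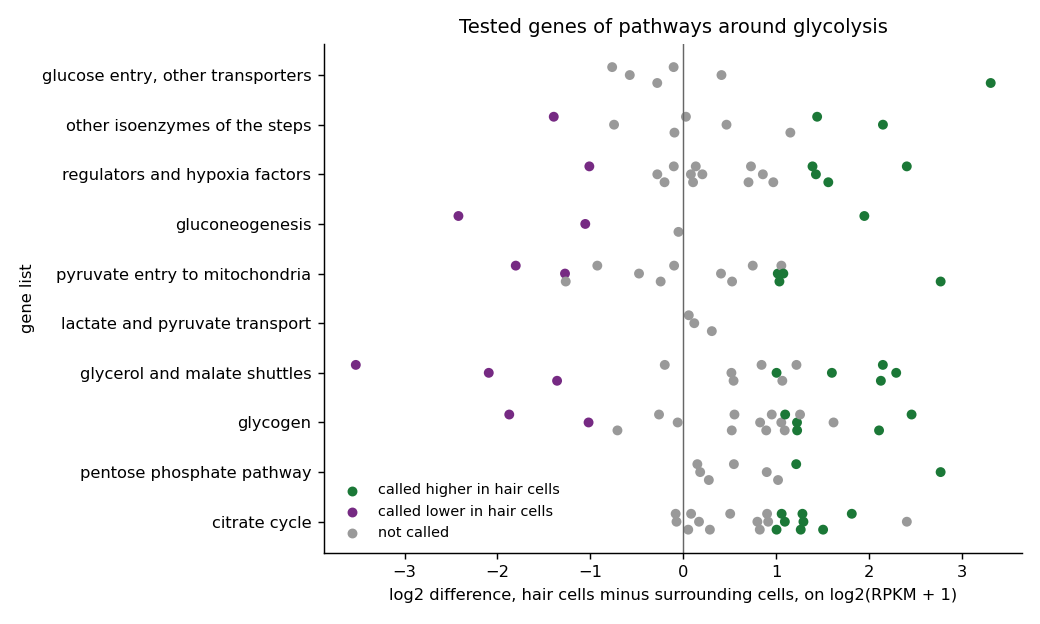
Log2 difference, hair cells minus surrounding cells, on log2(RPKM + 1) for the tested genes of 10 lists around glycolysis, 1 point per gene, green for genes called higher, purple for lower and grey for not called. Citrate cycle genes have 8 green and no purple points, and 2 genes not reported here are not drawn.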

How the data were processed

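RNA of sorted cells was extracted with the Qiagen miRNeasy mini plus kit and amplified with Clontech SMART-Seq, per the labels. The authors deposited 1 table of RPKM values per gene and library; the build in the submitters' processing notes is GRCz10, while for the aligner, the counting and reads shared by paralogs nothing is given in the sources used here. RPKM removes depth and length but is relative, so a few abundant genes lower all others. The 4 summary columns of the authors were not used, and 1 repeated row was removed. The value of 1 read was recovered from the RPKM of each library, and all 15803 tested genes came out as whole reads within 0.001 read, which gave the read numbers quoted. In the technical libraries of a sample, 5.48% to 5.83% of genes differed at an unadjusted p under 0.05, so these were averaged and counted as 1 sample. Column names begin with fish for hair cells replicate 1, with zhc for replicate 2 and with fish and WT for the surrounding cells, and the meaning of these words is not stated. Nothing states that the samples came from separate animals, so p-values rest only on the spread between these samples, moderated over genes.

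Genes with at least 1 RPKM in 1 biological sample were fitted with limma 3.58.1 in R 4.3.3 on log2(RPKM + 1), 2-sided, with an intensity trend, 1 residual degree of freedom (3.42 after moderation) and Benjamini-Hochberg adjustment over all tested genes. A fold on this scale understates the change of low genes. Balances and shares used exact permutation tests over the 3 samples. Every member is accounted for, with values per sample from 5 RPKM on; of each other list the 3 called genes with the largest difference are named, and of markers those highest in level; 2 genes of these lists count in the totals but are not reported here by name or value. Members and lists were chosen with earlier results of these data known. Alternatives were the pseudocount, the filter, 2 scalings, limma without trend, limma-voom on the recovered reads, 1 technical library only, and leaving out each hair cell sample. Sequences and genome coordinates were not used here. Of the 35 members, 34 matched the RefSeq table of GRCz12tu by symbol, which was used for neighbours only.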

Additional observations from a re-analysis of the deposited data

How the results depend on the processing

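The calls rest on 2 hair cell samples and 1 surrounding cell sample. Over the settings tried, the number of members called higher was between 10 (no filter) and 15, beside 14. The number called lower was between 2 and 5 (limma-voom), beside 3. The background changed too, so 17.7% and 18.0% hold for the reported setting only. With no filter 10 of 35 members were called higher, beside 1464 of 26520 genes. With a filter of 5 RPKM this was 15 of 22 members, beside 2709 of 8429 genes. By limma-voom 5 of 28 members were called lower, beside 3672 of 15803 genes. The median log2 difference of the members, 1.41, was 1.06 at a pseudocount of 5 RPKM, beside 0.08 over all genes tested. It was 0.67 without a filter (35 members), beside -0.05, and 1.59 with a filter of 5 RPKM (22 members), beside 0.43. When either hair cell sample was left out, the member median was between 1.17 and 1.41. Rescaling without mitochondrial and the 20 most abundant genes moved the median of all genes by -0.14 and limma-voom by -0.19, and the member medians were then 1.25 beside 0.01 and 1.25 beside -0.04 over all genes. The difference in the share of summed RPKM, 0.695 percentage points, was 0.550 with that rescaling, whose sum left out gapdhs as 1 of the 20.

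Without a filter, gapdhs, tpi1b, pgam1b, pkma and eno1b lost their calls (adjusted p by limma from 0.0503 for gapdhs to 0.0712 for eno1b), and with a pseudocount of 5 RPKM the size of pgam2 (-0.39) was too small. Calls were gained by hk2 with a filter of 5 RPKM and with limma-voom (adjusted p = 0.0217 in both), by aldoab with median-ratio scaling (limma adjusted p = 0.0472) and with limma-voom (adjusted p = 0.00447), and by pfklb with limma-voom (-1.84). The cause of these losses and gains was not tested. Signs reversed for aldoaa, which was not called, when rescaled (-0.0033) and with limma-voom (-0.058), and for pfkla between the samples left out (-0.069 without hair cells replicate 2 and 0.30 without replicate 1). They also reversed for the balance of pfkpb to pfkpa with a pseudocount of 5 RPKM (-0.048 beside 0.61) and of pkmb to pkma with one of 0.1 RPKM (0.32 beside -0.51). Of 274 member differences under alternatives with all 3 samples, 261 kept their direction and stayed called or not called, 6 lost the call, 5 gained it and 2 reversed. Of the 274, 7 passed to the other side of a size of 1. With a hair cell sample left out there is no test; 55 of 56 differences kept their sign, and pkmb passed the size of 1 without replicate 1 (1.28 beside 0.91). Of 96 balances with all 3 samples, 78 moved by less than the spread between the hair cell samples and 91 kept their sign, as did 30 of 32 with a sample left out. Over all 15803 tested genes, 2799 were called higher and 2851 lower, against 2179 and 3672 of 15803 with limma-voom. When rescaled the counts were 2477 and 3162 of 15938, and with a pseudocount of 5 RPKM 1603 and 1225 of 15803. With a filter of 5 RPKM they were 2709 and 1713 of 8429, and with no filter 1464 and 1740 of 26520. Counts of calls without a hair cell sample could not be fitted, since no residual degree of freedom is left. A rule of size with no test, a difference of at least 1 on log2(RPKM + 1), was chosen after seeing the data. Of the 35 members it gave 15 higher and 4 lower with both samples, 16 and 4 without replicate 1, and 15 and 4 without replicate 2. Of all 31387 genes it gave 2942 higher and 2838 lower with both samples, 3682 and 3322 without replicate 1, and 3407 and 3237 without replicate 2. No paired analysis was possible because the groups share fewer than 2 replicate numbers.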
